A study of Mus musculus with 40 samples.

Results

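Gfi1, Gfi1b, Myb and Ikzf1 encode DNA-binding proteins of early blood formation. The fragments studied here were the reporter fragments whose centre lay in the RefSeq body of one of these 4 genes in mm10 or within 25 kb of it. There were 200 such fragments of 458486 in the whole screen, and they fell into 25 of 75060 regions, a region being a run of overlapping fragments from any library. The host cells were HM-1, a mouse embryonic stem cell line. They have a non-functional Hprt locus, into which Tn5-cut open-chromatin fragments were placed in front of the minimal HSP68 promoter and a Venus-YFP gene. All groups carry such a construct, with 1 per cell, and a culture is a mixture of many clones. The groups were 5 stages of differentiation in culture with serum, which were embryonic stem cells (ES), the hemangioblast stage (HB), hemogenic endothelium 1 and 2 (HE1 and HE2) and hematopoietic progenitors (HP), each sorted into a Negative, Low, Medium and High YFP gate. The Negative gate had been set with cells that carried the minimal promoter and no fragment. With 2 replicates of each of the 20 groups there were 40 libraries. No gene expression was measured in these lists, so the labelled stages could not be checked against their marker genes.

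GFI1 and GFI1B are closely related zinc-finger repressors that recruit the LSD1 and CoREST complex, and they help to switch off the endothelial program when blood cells leave the hemogenic endothelium. MYB is a transcription factor that definitive blood stem and progenitor cells need. Ikaros, the product of Ikzf1, is a zinc-finger protein best known for its role in lymphoid cells, and it is already expressed in multipotent progenitors. Genes of this kind are usually controlled by enhancers far from their promoters. The screen asked which open-chromatin fragments can act as enhancers at which stage.

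A fragment is called positive in a sort that lists it in any gate above Negative (Low, Medium or High), and negative if that sort's Negative gate lists it. A sort is 1 stage of 1 replicate, so there were 10. Replicate 1 libraries held 4869 to 51146 fragments and replicate 2 libraries 654 to 31915, with medians of 15805 and 2750. Of the 200 fragments, 177 came from replicate 1 and 23 from replicate 2. All 20 libraries of replicate 1 held at least 1 of them, against 9 of the 20 in replicate 2. The lists hold no read counts, so each fragment counts once in a library. The composition of the cloned pool was not used here, and a locus with more cloned fragments can give more positive fragments, so levels do not compare the strength of the loci.

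The Gfi1 locus held 16 fragments in 6 regions, the Gfi1b locus 63 in 9, the Myb locus 41 in 5 and the Ikzf1 locus 80 in 5. Among all 21774 protein-coding gene loci, each taken with the same margin, the median was 9 fragments. Gfi1 stood at percentile 59.1 of this distribution, Myb at 77.2, Gfi1b at 84.5 and Ikzf1 at 88.9. The gene bodies lie at chr5:107716655-107725805 (Gfi1), chr2:28609450-28621982 (Gfi1b), chr10:21124930-21160984 (Myb) and chr11:11684962-11772930 (Ikzf1). Ikzf1 is on the plus strand and the other genes are on the minus strand. Regions are named below by their distance in kb from the gene's 5′ end, with positive values running into and past the gene. The Gfi1 window also held part of Evi5 and the Gfi1b window part of Tsc1. No region was centred within 1500 bp of a curated transcription start, and 1.80% of all fragments of the screen had their centre that close to one.

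**Figure D1:**
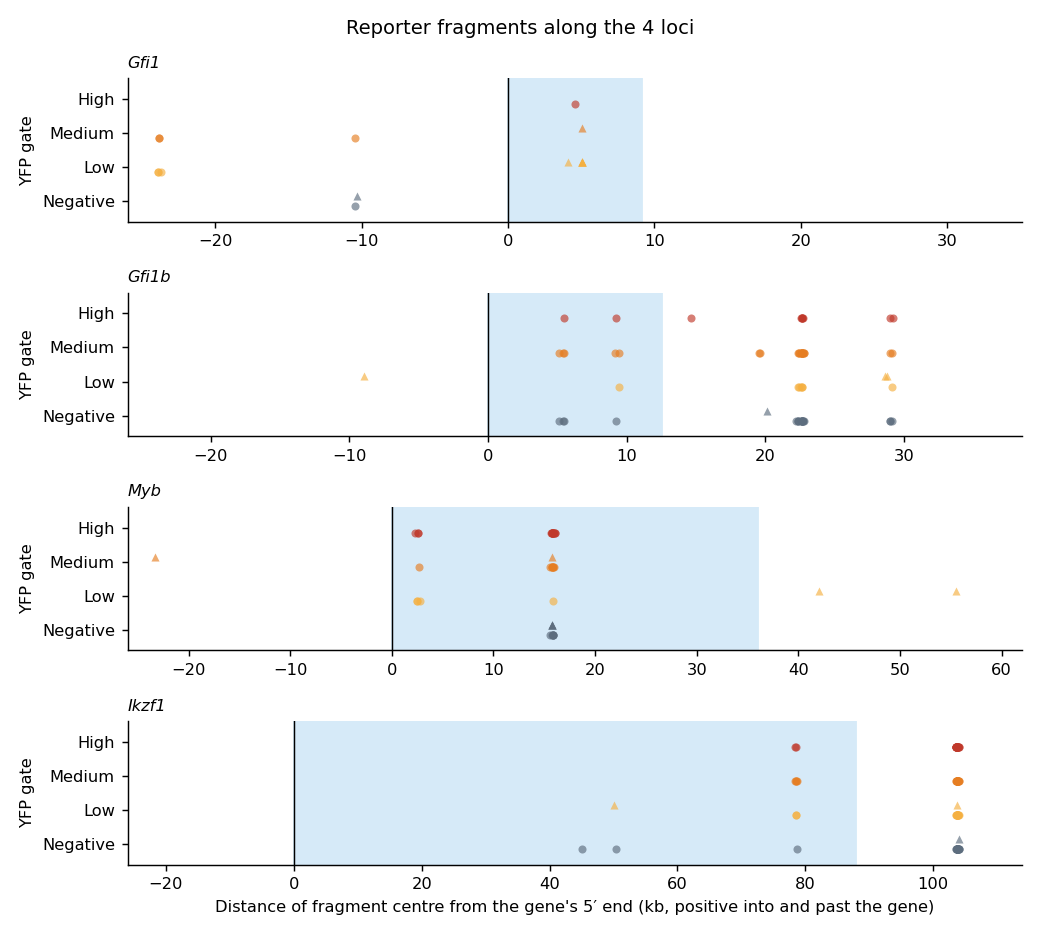
Each point is 1 fragment of 1 library, placed by the distance of its centre from the gene's 5′ end in kb and by its YFP gate, with circles for replicate 1 and triangles for replicate 2. Shading marks the gene body. Most fragments of Gfi1b, Myb and Ikzf1 pile up in 1 place each, at +22.6, +15.8 and +103.8 kb.

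The sequences below are shown because they lie in the region with most positive fragments of each locus. In all, 67.6% of the positive fragments lay in the 4 regions that led their loci. Each sequence is 300 bases of mm10, plus strand, centred on the median fragment centre of the region. Capitals mark matches, on either strand, to 9 short consensus motifs of factors of this pathway. The letters searched were TGTGGT for RUNX proteins, then AGATAA for GATA proteins, then GAGGAA for PU.1 and other ETS proteins. For the E-box, which TAL1 and other bHLH proteins bind, the letters were CAGCTG, and for AP-1 they were TGANTCA. For TEAD proteins the search was for GGAATG, while AAATCAC stood for the GFI1 and GFI1B site. The MYB site was searched as CAACNG, and Ikaros and RBPJ, whose short sites are alike, shared the letters TGGGAA. The window of Gfi1 lies in intron 5 at chr5:107720631-107720930, that of Gfi1b past the gene at chr2:28599228-28599527, that of Myb in an exon at chr10:21145015-21145314 and that of Ikzf1 past the gene at chr11:11788604-11788903.
Gfi1 +5.0 kb: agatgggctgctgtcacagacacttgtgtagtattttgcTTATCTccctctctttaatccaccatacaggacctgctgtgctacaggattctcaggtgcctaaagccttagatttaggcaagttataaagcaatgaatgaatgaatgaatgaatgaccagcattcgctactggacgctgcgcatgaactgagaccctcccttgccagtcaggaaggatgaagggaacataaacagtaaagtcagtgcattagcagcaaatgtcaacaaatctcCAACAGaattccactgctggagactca
Gfi1b +22.6 kb: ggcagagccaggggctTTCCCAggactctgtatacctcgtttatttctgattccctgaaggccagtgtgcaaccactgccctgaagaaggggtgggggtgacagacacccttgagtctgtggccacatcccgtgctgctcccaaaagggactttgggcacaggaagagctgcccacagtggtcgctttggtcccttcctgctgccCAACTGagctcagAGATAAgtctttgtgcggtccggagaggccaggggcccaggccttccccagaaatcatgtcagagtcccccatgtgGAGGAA
Myb +15.8 kb: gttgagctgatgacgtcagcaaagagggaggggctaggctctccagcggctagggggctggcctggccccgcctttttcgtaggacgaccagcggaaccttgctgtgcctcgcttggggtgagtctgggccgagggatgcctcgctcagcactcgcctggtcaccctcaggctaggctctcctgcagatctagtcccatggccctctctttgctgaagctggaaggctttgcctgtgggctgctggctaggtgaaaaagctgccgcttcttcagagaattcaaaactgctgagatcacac
Ikzf1 +103.8 kb: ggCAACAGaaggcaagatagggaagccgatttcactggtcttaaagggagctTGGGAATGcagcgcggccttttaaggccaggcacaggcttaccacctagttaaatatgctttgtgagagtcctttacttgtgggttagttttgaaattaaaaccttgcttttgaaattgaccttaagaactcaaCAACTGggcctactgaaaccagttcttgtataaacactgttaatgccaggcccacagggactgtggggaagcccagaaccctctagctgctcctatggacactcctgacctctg
The Gfi1 window held 1 GATA and 1 MYB match. The Gfi1b window held 1 match each to the Ikaros and RBPJ, MYB, GATA and ETS motifs. The Ikzf1 window held 2 MYB matches and 1 TEAD match that overlapped 1 Ikaros and RBPJ match, and the Myb window held no match to these letters. Over windows of the same length at 75043 regions of the screen, a GATA match was in 16.5%, an ETS match in 31.6%, a MYB match in 36.2%, an Ikaros and RBPJ match in 28.4% and a TEAD match in 18.7%. RUNX was in 23.5%, the E-box in 19.9%, AP-1 in 13.4% and the GFI motif in 3.38%. Of the 25 such windows at these loci, 10 had a MYB match, 8 an Ikaros and RBPJ match, 6 an ETS match, 5 a GATA match, 4 an AP-1 match, 2 a RUNX match, 2 an E-box, 1 a TEAD match and 0 a GFI match. These are letter matches and not measured binding.

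Gfi1 had the fewest fragments, and nearly all of them were positive. In replicate 1 the number of positive fragments was 1 in ES, 0 in HB and 2 each in HE1, HE2 and HP. In replicate 2 it was 1 in ES, 1 in HB, 5 in HE1 and 0 in HE2 and HP. The negative fragments numbered 1 in HE1 of replicate 1 and 1 in ES of replicate 2. Of the 14 fragments in positive gates 9 were in Low, 4 in Medium and 1 in High. Both replicates therefore gave 7 positive fragments each, but not in the same place. The region in intron 5 (+5.0 kb, chr5:107720628-107720934) held 6 positive and 0 negative fragments, all from replicate 2, with 4 in HE1 Low, 1 in HB Low and 1 in ES Medium. One identical fragment of 307 bp, which spans this whole region, was in 3 of those libraries. All 6 entries were nearly identical, with lengths of 305 to 307 bp, so they are not 6 separate sequences. With near-identical fragments of a library collapsed, the Gfi1 locus kept 13 of its 16 entries. The region in an intron of Evi5 (-23.9 kb, chr5:107749406-107749844) held 5 positive and 0 negative fragments, all from replicate 1, and in HE1, HE2 and HP only. The single High fragment (+4.5 kb, chr5:107721146-107721382) was in ES of replicate 1 and shares 112 bases with coding exon 5 of the longer of 2 curated transcripts.

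Gfi1b had positive fragments at all 5 stages of replicate 1 and almost none in replicate 2. In replicate 1 the number of positive fragments was 3 in ES, 4 in HB, 14 in HE1, 8 in HE2 and 8 in HP, beside 1, 1, 12, 3 and 3 negative ones. In replicate 2 there were 3 positive fragments, all in HE1 Low, and 1 negative fragment, in HP. As a level, positive fragments per 10000 positive fragments of the sort, replicate 1 lay between 1.03 in HB and 2.02 in HP. The exact Poisson interval at 95% was 0.280 to 2.63 in HB and 0.871 to 3.97 in HP, so the ends of this range overlap. Positive gates held 10 Low, 22 Medium and 10 High entries. Fragments found in 2 positive gates of a sort count once, which leaves 40 positive fragments.

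The largest Gfi1b region (+22.6 kb, chr2:28599008-28599886) lies between genes, 10.1 kb past the end of Gfi1b. The curated transcription start nearest to it is that of another gene, Gtf3c5, and the region lies upstream of that start, at -16099 bp. Which gene the region acts on was not tested. The region held 21 positive and 13 negative fragments, all from replicate 1. They came from 3 stages only, with 9 positive and 8 negative in HE1, 7 and 3 in HE2, and 5 and 2 in HP. No fragment was found there in ES or HB. In replicate 1 the level was 0.883 per 10000 in HE1 (exact Poisson interval 0.404 to 1.68), 1.02 in HE2 (0.411 to 2.11) and 1.26 in HP (0.409 to 2.94), while a count of 0 allows up to 1.08 in ES and 0.770 in HB. Both limits lie inside these 3 intervals, taken sort by sort. Such an overlap is not a test, and whether the level of this region was lower at the earlier stages was not tested. The study's methods also keep fragments only where the stage in question has open chromatin, which would set a site to 0 at other stages, and whether the lists had passed this filter is not stated in the sources used here. Up to 14 of its 28 distinct fragments overlapped at the same bases. The region at +29.0 kb (chr2:28592521-28593464) is also past the gene and nearest to the start of Gtf3c5 (-9733 bp). This region held 7 positive and 3 negative fragments and was positive in 5 sorts and 4 stages, with HE1 of replicate 2 among them. The region at +9.2 kb (chr2:28612501-28612952), which contains all 138 bases of coding exon 5 of Gfi1b, held 4 positive and 1 negative fragments. All of them were from replicate 1, with 1 positive in ES and 3 in HB. The other 6 regions held 1 to 5 fragments each.

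Myb had no positive fragment in ES and had positive fragments at every later stage. In replicate 1 the number of positive fragments was 0 in ES, 4 in HB, 13 in HE1, 6 in HE2 and 4 in HP, beside 1, 1, 3, 0 and 1 negative ones. In replicate 2 it was 0 in ES, 1 in HB, 2 in HE1, 0 in HE2 and 1 in HP, with 1 negative fragment at each stage but HB, which had 0. Both ES sorts were thus at 0, which allows up to 1.08 per 10000 in replicate 1 and 3.33 in replicate 2. The other levels of replicate 1 were 0.877 in HE2 to 1.28 in HE1 per 10000. The limit of ES in replicate 1 lies within the interval of HE1 (exact Poisson interval 0.679 to 2.18). This overlap of 2 single sorts is not a test, and ES alone was not tested against the later stages. Of 31 entries in positive gates 15 were in High, 10 in Medium and 6 in Low. High was the most frequent positive gate here.

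The largest Myb region (+15.8 kb, chr10:21144824-21145597) covers the whole of exon 10 of the longer curated transcript, which has 16 exons. This exon of 357 bp is coding throughout and is present in 1 of the 2 curated transcripts. The region held 21 positive fragments, of which 12 were in High, 8 in Medium and 1 in Low, and 10 negative fragments. In replicate 1 the positive fragments numbered 4 in HB, 11 in HE1, 2 in HE2 and 3 in HP. Replicate 2 contributed 1 identical fragment of 167 bp at all 5 stages. It was in HB Medium and in the Negative gate of ES, HE1, HE2 and HP, so a single sequence was listed as positive at 1 stage and as negative at 4. The region in intron 1 (+2.5 kb, chr10:21158094-21158833) held 7 positive and 0 negative fragments, all from replicate 1, with 2 in HE1, 4 in HE2 and 1 in HP. The 3 other regions held 1 fragment each. All 3 were positive and from replicate 2, and the farthest was at +55.5 kb (chr10:21105266-21105608).

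Ikzf1 had the most fragments, and 84.2% of its positive ones lay in a single region. In replicate 1 the number of positive fragments was 5 in ES, 9 in HB, 20 in HE1, 11 in HE2 and 10 in HP, beside 1, 4, 13, 1 and 2 negative ones. In replicate 2 there were 2 positive fragments, both in HE1 Low, and 1 negative fragment, in HP. The level of replicate 1 lay between 1.61 per 10000 in HE2 (exact Poisson interval 0.802 to 2.88) and 2.52 in HP (1.21 to 4.64). Positive gates held 16 Low, 21 Medium and 21 High entries, 58 in all, which are 57 positive fragments.

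The leading Ikzf1 region (+103.8 kb, chr11:11788399-11789132) lies between genes, 15.8 kb past the end of Ikzf1. The curated transcription start nearest to it is that of another gene, Fignl1, at a distance of 20208 bp. Which gene the region acts on was not tested. The 68 entries of the region put it above 99.1% of all regions of the screen in number. It held 48 positive and 19 negative fragments and was the only region of the 25 with positive fragments at all 5 stages. It also had the most entries of the 25, and a region with more entries can reach more stages. The share of such regions in the whole screen was not counted. In replicate 1 it held 5 positive fragments in ES, 6 in HB, 20 in HE1, 8 in HE2 and 8 in HP. In replicate 2 it held 1 positive fragment in HE1 and 1 negative fragment in HP. Up to 28 of its 50 distinct fragments overlapped at the same bases. The region in intron 7 (+78.6 kb, chr11:11763158-11763678) held 8 positive and 1 negative fragments, all from replicate 1, with 3 positive in HB, 3 in HE2 and 2 in HP. The third place by number of positive fragments was held by a single Low fragment of HE1 of replicate 2 in intron 3 (+50.1 kb, chr11:11734877-11735192).

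**Figure D2:**
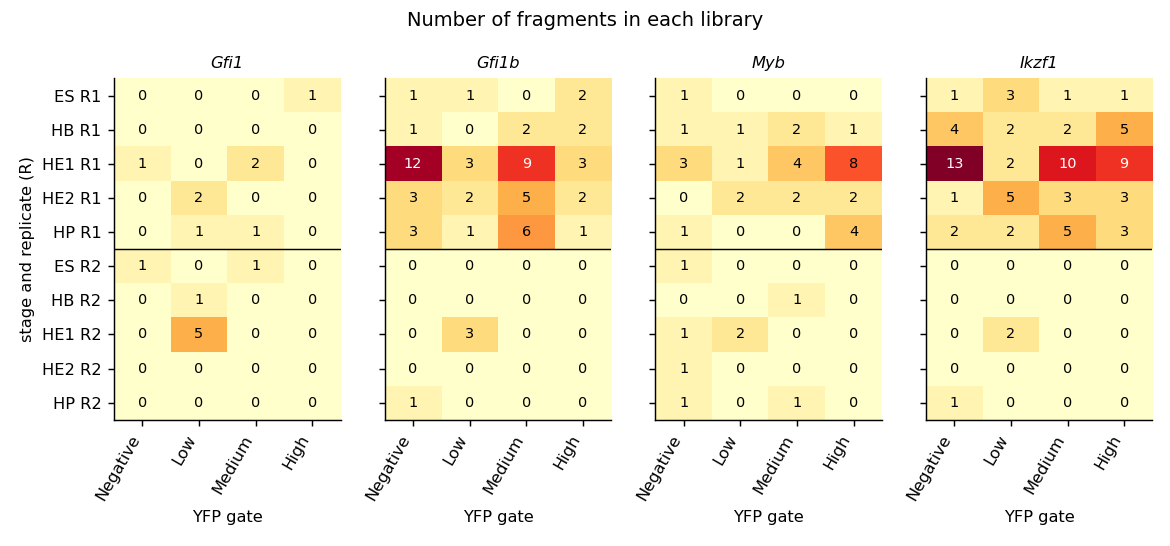
Each cell gives the number of fragments of a locus in 1 library, with YFP gates across and stage and replicate (R1, R2) down, and darker cells hold more fragments. HE1 of replicate 1 holds the highest counts of Gfi1b, Myb and Ikzf1, up to 13 in its Negative gate at Ikzf1, and replicate 2 is mostly at 0.

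Positive and negative fragments overlapped in all of the 3 largest regions. In the Ikzf1 region the median fragment centre was 103786 bp from the gene's 5′ end for positive and 103802 bp for negative fragments. In the Myb region it was 15807 and 15795 bp, and in the Gfi1b region 22621 and 22599 bp. Median lengths were 183.5 and 145 bp for positive and negative fragments at Ikzf1, 175 and 167 bp at Myb, and 165 and 216 bp at Gfi1b. Over all 4 loci the median length was 193.5 bp for 142 positive and 167 bp for 55 negative fragments, and mean GC content was 53.4% and 55.6%. A MYB match was in 45.1% of the positive and 43.6% of the negative fragments, and an Ikaros and RBPJ match in 28.9% and 27.3%. These values are descriptions, since fragments of a region overlap and are not independent.

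**Figure D3:**
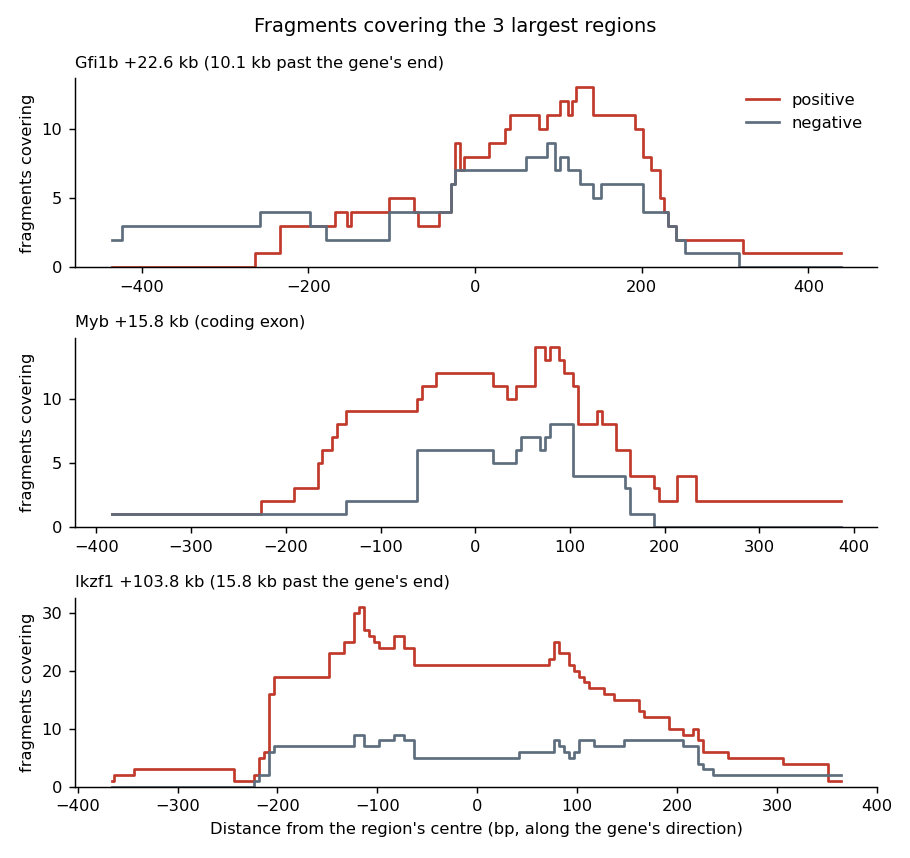
Lines give the number of positive (red) and negative (grey) fragments that cover each position of the 3 regions with at least 20 fragments, against the distance in bp from the region's centre along the gene's direction. A fragment of several sorts counts once in each. Both classes cover the central part of each region.

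Identical fragments recurred between libraries but hardly between replicates. The 200 entries were 153 distinct fragments. Of these 32 (20.9%) were in more than 1 library and 1 (0.654%) was in both replicates, against 19.0% and 0.956% of all 354627 distinct fragments of the screen. The fragment of both replicates was in the leading Ikzf1 region, listed in HE1 Negative of replicate 1 and HE1 Low of replicate 2. Of the 55 negative fragments, 20 were also positive in the same sort. All 20 were in HE1 of replicate 1, where they were 20 of 29 negative fragments (69.0%), and 0 of 26 were in the other sorts, which allows up to 11.5%. Over the whole screen these shares were 71.3% in HE1 of replicate 1 and 12.9% in the other sorts. Only 3 of the 25 regions were seen in both replicates, namely Gfi1b +29.0 kb, Myb +15.8 kb and Ikzf1 +103.8 kb, and 9 regions were seen only in replicate 2. That is 12% of the regions in both replicates and 36% in replicate 2 alone, against 9.28% and 57.7% of all 75060 regions.

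Whether a locus gave more positive fragments than its share was then tested. The test takes each fragment of a sort as 1 independent count, although fragments overlap and some are in both classes (8 at Gfi1b), so its p-values and intervals cover counting error only. The expected number is what the positive share of all fragments of each sort would give. Gfi1b gave 40 positive and 21 negative fragments with 47.4 positive ones expected, a ratio of 0.844 and a common odds ratio of 0.521 (95% interval 0.301 to 0.903). The exact conditional test with sorts as strata gave p = 0.0253 and, adjusted over 8014 gene loci with at least 20 fragments, p = 1. Myb gave 31 and 10 with 31.1 expected, a ratio of 0.997 and an odds ratio of 0.986 (0.470 to 2.07; exact test, adjusted p = 1). Ikzf1 gave 57 and 22 with 61.2 expected, a ratio of 0.931 and an odds ratio of 0.737 (0.443 to 1.23; exact test, adjusted p = 1). Gfi1 gave 14 and 2 with 13.2 expected and, with 16 fragments, was below the number needed for the test. None of the 3 loci tested was called. Of all 8014 loci 0.0499% were called at an adjusted p under 0.05 (1 higher and 3 lower), and 339 (4.23%) had an unadjusted p under 0.05.

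The ratio of Gfi1b was at percentile 2.93 of the 8014 loci, that of Ikzf1 at 14.9 and that of Myb at 46.6, with a median of 1.00 over all loci. Without HE1 of replicate 1, where most negative fragments were also positive, the ratios were 0.899 for Gfi1b, 0.913 for Myb and 0.980 for Ikzf1. With fragments in both classes left out they were 0.847, 0.978 and 0.930. At Gfi1b the ratio was thus below 1 in both settings, and it did not pass the test in either (exact test, adjusted p = 0.973 and p = 0.669). The limma fit with voom weights, on the log2 level with sorts as blocks, gave differences of positive minus negative of -0.43 (SE 0.46) for Gfi1b, -0.46 (SE 0.58) for Myb and -0.11 (SE 0.45) for Ikzf1, with adjusted p of 0.824, 0.854 and 0.964. The median over all loci was 0.31, so relative to it these were -0.74, -0.77 and -0.42. This fit called 0.0374% of 8014 loci, with 708 (8.83%) at an unadjusted p under 0.05. The difference of Gfi1b was -0.82 without replicate 2, -0.67 without HE1 of replicate 2, -0.26 without HE2 of replicate 1 and -0.07 with a margin of 10 kb, and it passed the test in none of these fits.

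**Figure D4:**
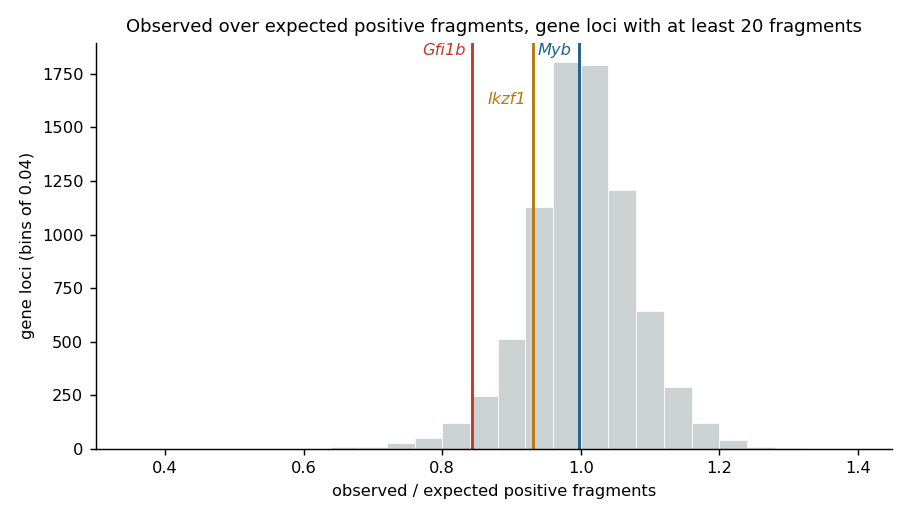
Bars give the number of gene loci by how many positive fragments were observed over those expected, for the 8014 loci with at least 20 fragments, and lines mark the ratios of Gfi1b (0.844), Ikzf1 (0.931) and Myb (0.997). All 3 lines lie within the range of the other loci.

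The same test was made for the 3 regions with at least 20 fragments. In the Gfi1b region 21 positive fragments stood against 26.8 expected (ratio 0.785, exact test, p = 0.0188, adjusted p = 1). In the Myb region 21 stood against 23.2 (ratio 0.906, exact test, adjusted p = 1), and in the Ikzf1 region 48 against 51.0 (ratio 0.941, exact test, adjusted p = 1). None was called, and 0.199% of 5530 regions were (all of them lower), with 243 at an unadjusted p under 0.05. Regions with 5 or more positive and 0 negative fragments, picked after their values were seen, were Myb +2.5 kb with 7, Gfi1 +5.0 kb with 6 and Gfi1 -23.9 kb with 5. The positive shares of their sorts would give 5.81, 5.27 and 4.14 positive fragments, and the 6 at Gfi1 +5.0 kb were nearly identical. How often such regions occur in the whole screen was not counted. All 3 regions were too small for the test.

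High and Low fragments were compared in the same way, as a measure of how bright the reporter was. Myb gave 15 High and 6 Low fragments with 12.6 High ones expected (ratio 1.19, odds ratio 2.05, 95% interval 0.644 to 6.54, exact test, p = 0.317, adjusted p = 1). Gfi1b gave 10 and 10 with 10.5 expected (ratio 0.951, exact test, adjusted p = 1), and Ikzf1 21 and 16 with 21.9 expected (ratio 0.958, exact test, adjusted p = 1). Gfi1, with 1 High and 9 Low fragments and 2.84 High ones expected, was too small for the test. The test called 0.0583% of 5142 loci (all of them higher), with 315 (6.13%) at an unadjusted p under 0.05. The High share of Myb thus did not differ from that of the same sorts beyond counting error.

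Stages were compared over the 10 sorts by the variance of the mean log2 levels between stages, in all 945 ways of pairing sorts into stages. The exact permutation p was 0.689 for Gfi1, 0.898 for Gfi1b, 0.133 for Myb and 0.949 for Ikzf1. A single pairing would give 0.00106, but sorts tied at 0 make several pairings equal, so the smallest p within reach is higher. No locus passed the test at the margin of 25 kb. With a margin of 50 kb the p of Myb was 0.0476, which passes the threshold of 0.05 (exact permutation test, not adjusted over the 4 loci). The limma fit of stage did not call Myb at either margin, but it called no locus at all at either, so it cannot be weighed against this value. By the mean of both replicates the order of the stages was HE1 (1.12 ± 0.362 per 10000, SD, n = 2), HP (1.01 ± 1.43), HE2 (0.585 ± 0.827), ES (0.541 ± 0.765) and HB (0.513 ± 0.726) for Gfi1b. For Myb it was HP (1.46 ± 0.645, SD, n = 2), HE1 (0.925 ± 0.495), HB (0.923 ± 0.147), HE2 (0.438 ± 0.620) and ES (0 in both). For Ikzf1 it was HE1 (1.27 ± 0.981, SD, n = 2), HP (1.26 ± 1.78), HB (1.16 ± 1.63), ES (0.902 ± 1.28) and HE2 (0.804 ± 1.14), and for Gfi1 HE1 (0.816 ± 0.877, SD, n = 2), ES (0.735 ± 0.529), HB (0.410 ± 0.579), HP (0.252 ± 0.356) and HE2 (0.146 ± 0.207). At each locus all neighbours in the order differed by less than the larger of their SDs. These means give the shallow replicate 2 equal weight, and HP of Myb in replicate 2 held 1 fragment. With the fragments of both replicates pooled, HP led for Gfi1b (1.78, beside 1.24 in HE1) and Ikzf1 (2.23, beside 1.61 in HE1). ES then led for Gfi1 (0.544, beside 0.512 in HE1), and HP stayed first for Myb (1.11, beside 1.10 in HE1). The limma fit of stage over 6922 loci with at least 20 positive fragments called 0%, with 5 loci at an unadjusted p under 0.05 and 0 called by limma-trend either. These 5 are far fewer than a share of 0.05 of the loci, so the absence of a call in this fit says little. Its adjusted p was 1.00 for Gfi1b, Myb and Ikzf1.

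**Figure D5:**
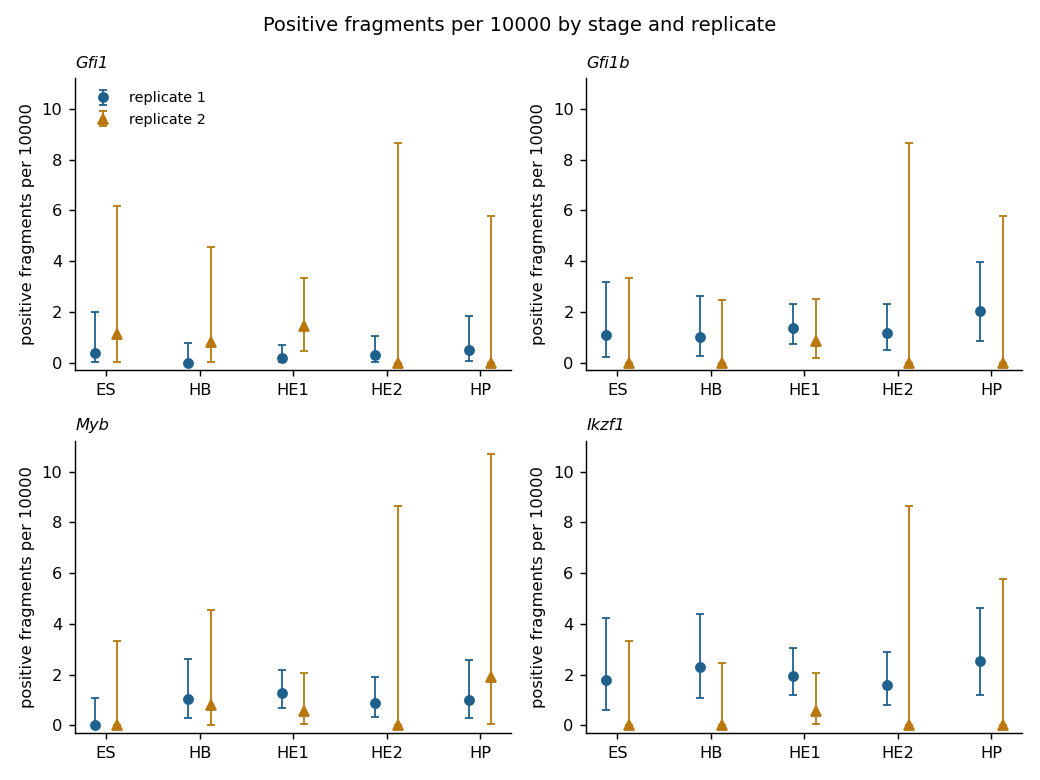
Points give positive fragments per 10000 positive fragments of a sort for each stage, as circles for replicate 1 and triangles for replicate 2, and bars are exact 95% Poisson intervals, or the limit of 3 counts where the count is 0, and cover counting error only. At Gfi1b and Ikzf1 all 5 sorts of replicate 1 are above 0 and 1 of 5 sorts of replicate 2 is.

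Pooled over stages, the levels of the replicates differed in value at each locus, and whether they differ beyond counting error was not tested. Ikzf1 had 1.99 positive fragments per 10000 in replicate 1 (55 of 276711) and 0.309 in replicate 2 (2 of 64717), and Gfi1b 1.34 (37 fragments) and 0.464 (3 fragments). Myb had 0.976 (27 fragments) and 0.618 (4 fragments). Gfi1 went the other way, with 0.253 (7 fragments) in replicate 1 and 1.08 (7 fragments) in replicate 2. Of the latter, 6 were the near-identical entries at +5.0 kb. These pooled values have no spread of their own and were not tested.

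Other genes of the transition from endothelium to blood were read from a list of 26, which includes Runx1, its partner Cbfb, the stem cell leukemia factor Tal1, Gata2, Spi1 and the LSD1 and CoREST genes Kdm1a and Rcor1. Of the 20 with at least 20 fragments 0 rose and 0 fell between negative and positive by the exact test. At an unadjusted p under 0.05 were 2 of the 20, beside 4.23% of all loci, the Polycomb gene Bmi1 (46 positive and 27 negative, ratio 0.832) and the ETS repressor gene Etv6 (65 and 33, ratio 0.879). The median ratio of the list was 0.963, beside 1.00 over all loci. By limma 0 of 20 were called and 0 had an unadjusted p under 0.05, beside 8.83% of all loci. For High against Low 0 of 17 were called and 1, Tal1, had an unadjusted p under 0.05 (exact test, p = 0.0135, adjusted p = 0.707), beside 6.13% of all loci. For stage 0 of 19 were called by limma, beside 0% of all loci.

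Loci with the most similar course of positive levels over the 10 sorts were named by Spearman correlation among the other loci with at least 50 positive fragments. They were Tenm2 (0.926), Pkm (0.917) and Dlg2 (0.880) for Gfi1, and Top1 (1.00) and Bean1 (0.987) for Gfi1b. For Myb they were Racgap1 (0.912), Smarca4 (0.902) and Arhgef1 (0.880), and for Ikzf1 3110082I17Rik, Pold4 and Sae1 (0.987 each). All these loci share the 10 sorts and their depths, and 3 or 4 sorts are tied at 0, so the values only describe likeness.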

How the data were processed

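Open-chromatin fragments were integrated as reporters, cells were sorted, and inserts were amplified and sequenced as read pairs. Per the labels and methods, the authors used Trim Galore for trimming, Bowtie2 for alignment (mm10) and SAMtools to select proper pairs whose mapping quality was above 40, and removed repeated fragments and those matching a background library. Their methods go on to keep fragments at DNaseI sites that also have an ATAC peak at the stage concerned. Which filters the deposited lists had passed is not stated in the sources used here. The tool versions are not given in the sources used here. The deposited values are start and end coordinates in bp, 1 list per library, with no counts.

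Fragments were placed by their centre on RefSeq genes of GRCm38.p6, the assembly mm10 names. Tests used Python 3.11.15, scipy 1.17.1, and limma 3.58.1 in R 4.3.3, with Benjamini-Hochberg adjustment. The exact conditional test took the 10 sorts as strata. For limma, fragments were counted per locus, with a prior count of 0.5 scaled to library size, and voom weights. The scripts were tested on simulated data. Intervals are exact Poisson intervals at 95%, a count of 0 allows 3 counts, and both cover counting error only. The labels number the replicates and do not say what same-numbered samples share. Deviations of same-numbered samples from their stage means correlated between 0.304 and 0.482 over 10 pairs of stages. The replicates also differ in depth (median libraries of 15805 and 2750 fragments), which can give such a correlation without pairing. The correlation therefore cannot show pairing, and taking the replicate numbers to pair the samples is an assumption.

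Named regions are those with at least 20 fragments and the 3 with most positive fragments in each locus. One locus that the rule on likeness would name is not reported here. The members and lists were chosen with earlier results of these data known. Alternatives were windows of 10 and 50 kb, a minimum of 10 fragments, near-identical fragments (ends within 5 bp) collapsed, Low left out, fragments in both classes left out, other tests, and each replicate or sort left out.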

Additional observations from a re-analysis of the deposited data

How the results depend on the processing

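No locus or region of the 4 genes passed its exact or limma test under any of the 242 combinations of value and alternative, with 0.382 as the lowest adjusted p. Gfi1b kept a ratio of positive fragments below 1 in all of its 19 alternatives, from 0.825 to 0.899, and in its largest region in all 16 that could be tested, from 0.756 to 0.812. Without HE1 replicate 1 this region and that of Myb fell to 17 fragments, too few for the test, with ratios of 0.818 and 0.756. The ratio of Myb moved above 1 with Low left out (1.03), with a window of 50 kb (1.01), without replicate 2 (1.05) and without single sorts (1.00 to 1.02, over ES, HB and HP of replicate 1 and ES, HE1 and HE2 of replicate 2), and leaving out a replicate or sort gave 0.913 to 1.05. In its largest region these leave-one-out ratios were 0.888 to 1.01, with 1.01 without replicate 2, and in that of Ikzf1 0.900 to 1.02, with 1.02 without HE1 replicate 1. The High ratio moved above 1 for Gfi1b with 50 kb (1.06) and for Ikzf1 without ES replicate 1 (1.01, in a leave-one-out range from 0.854). The limma difference of Gfi1b was -0.82 (without replicate 2) to -0.26 (without HE2 replicate 1) in the leave-one-out fits and -0.07 with 10 kb. It was above 0 for Myb without replicate 2 (0.23, in a range from -0.77) and for Ikzf1 without HB replicate 1 (0.03), HE1 replicate 1 (7.7e-05) or HP replicate 2 (0.043, in a range from -0.29). The cause was not tested.

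The sorts serve as a replicate block. With replicates pooled in place of this block, the High ratio of Ikzf1 was 1.08, and the exact test called 28 regions and, for High against Low, 158 loci, while limma called 0. With the replicate means subtracted as a block, the exact permutation p for stage was 0.783 for Gfi1, 0.4 for Gfi1b, 0.167 for Myb and 0.6 for Ikzf1. With 50 kb, without the block, it was 0.0476 for Myb, which passes 0.05 where the value at 25 kb, 0.133, does not. No call changed for a member by the block.

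Counts of calls over all loci changed as follows. For positive against negative they were 1 with near-identical fragments collapsed, 12 with fragments in both classes left out, 10 with 50 kb and 2 to 5 with a replicate or sort left out (2 without replicate 1, replicate 2 or HP replicate 1). For regions they were 0 when collapsed, 4 with Low left out and 3 (without replicate 2) to 20 (without replicate 1) in the leave-one-out fits. For High against Low they were 0 when collapsed, 7 at a minimum of 10, 17 with 50 kb and 0 (without replicate 2, or its ES, HE1 or HP sort) to 10 (without HE2 replicate 1) in the leave-one-out fits. For limma they were 0 with Low left out, 0 with 50 kb and 0 to 6 (without HE1 replicate 1) in the leave-one-out fits. No value could be had for members that fell under 20 fragments. Among these were Gfi1b, Myb and Ikzf1 without replicate 1, Ikzf1 with 10 kb and the 2 regions named above without HE1 replicate 1. Gfi1 was under 20 in the main setting already. For High against Low, 12 leave-one-out fits were made, but only 4 gave a value for Gfi1b and 5 for Myb. Gfi1b had no High value with 10 kb either. Most counts per sort were too small to show a change of stage.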
